A study of Homo sapiens with 8 samples.

Results

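The genes described here encode enzymes that methylate lysine 4 of histone H3 (H3K4) and the partners these enzymes need. The 10 genes were chosen by function, with no peak value in the rule, but with earlier results of these data known, so their counts are a description. They are the methyltransferase genes KMT2A, KMT2B, KMT2C, KMT2D, SETD1A and SETD1B and the partner genes ASH2L, RBBP5, DPY30 and CXXC1. Together they make up 10 of the 20033 nuclear protein-coding genes of GENCODE release 44. The data were HA ChIP-Seq in U2OS, a human osteosarcoma cell line, in 8 libraries. PHF20 carried 3 copies of the HA tag at its N terminus in 2 ChIP libraries and 1 input library. PHF20L1 carried the same tag in 3 ChIP libraries, at the N terminus in 1 and at the C terminus in 2, with 1 input library for each form. Both proteins were overexpressed from a transgene and the cells were sorted by GFP, so the peaks describe the tagged proteins and not the endogenous ones. The authors made 1 final list per protein by taking the peaks of its strongest replicate and keeping those that were matched by a peak in the other ChIP libraries, of which there was 1 for PHF20 and 2 for PHF20L1. The widths given here are thus those of 1 library per protein, and the lists were not made under equal conditions. They hold no peak height and no read count. Error between replicates and depth per library are therefore unknown here, and the identity of the cells could not be checked from peak positions. A gene without a peak is one where none was kept in the final list, and weaker binding there cannot be seen in these data.

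H3K4 methylation is found at the start of active genes and also at enhancers. It is written by 6 related complexes in human cells, each built on 1 of the 6 methyltransferases and on a common core of WDR5, RBBP5, ASH2L and DPY30, which the catalytic subunits need for full activity. KMT2A and KMT2B work with menin, KMT2C and KMT2D mainly at enhancers, and SETD1A and SETD1B with CXXC1, which binds unmethylated CpG. PHF20 and PHF20L1 are Tudor-domain proteins that read methylated lysines and belong to the nonspecific lethal (NSL) acetyltransferase complex, which also contains WDR5. According to the authors, this complex exists in distinct forms that hold either PHF20 or PHF20L1, but not both.

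A peak was assigned to a promoter when it overlapped the interval between 1000 bp before and 500 bp after the transcription start site (TSS) of any transcript of the gene. PHF20 peaks lay at the promoters of 5 of the 10 genes, KMT2A, KMT2D, SETD1A, ASH2L and RBBP5, against 20.7% of all protein-coding genes (4148 of 20033, Wilson 95% interval 20.15% to 21.27%). PHF20L1 peaks lay at 2 of them, KMT2A and RBBP5, against 3.82% of all protein-coding genes (interval 3.57% to 4.1%). Both were also PHF20 targets, and the peaks of the 2 proteins overlapped there, as they did at 3.71% of all protein-coding genes. A PHF20 peak was found at 3 of the 6 methyltransferase genes and at 2 of the 4 partner genes. No peak of either protein was found in the promoter or elsewhere in KMT2B, KMT2C, SETD1B and CXXC1, and DPY30 had a PHF20 peak in its annotated span only. The methyltransferases form 3 pairs of closely related genes, KMT2A with KMT2B, KMT2C with KMT2D, and SETD1A with SETD1B, and in each pair 1 gene had a PHF20 promoter peak and the other had none. The pairs were looked at after the values had been seen, and with peaks at 3 of 6 genes such an arrangement is not unusual, so nothing is read from it.

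**Figure D1:**
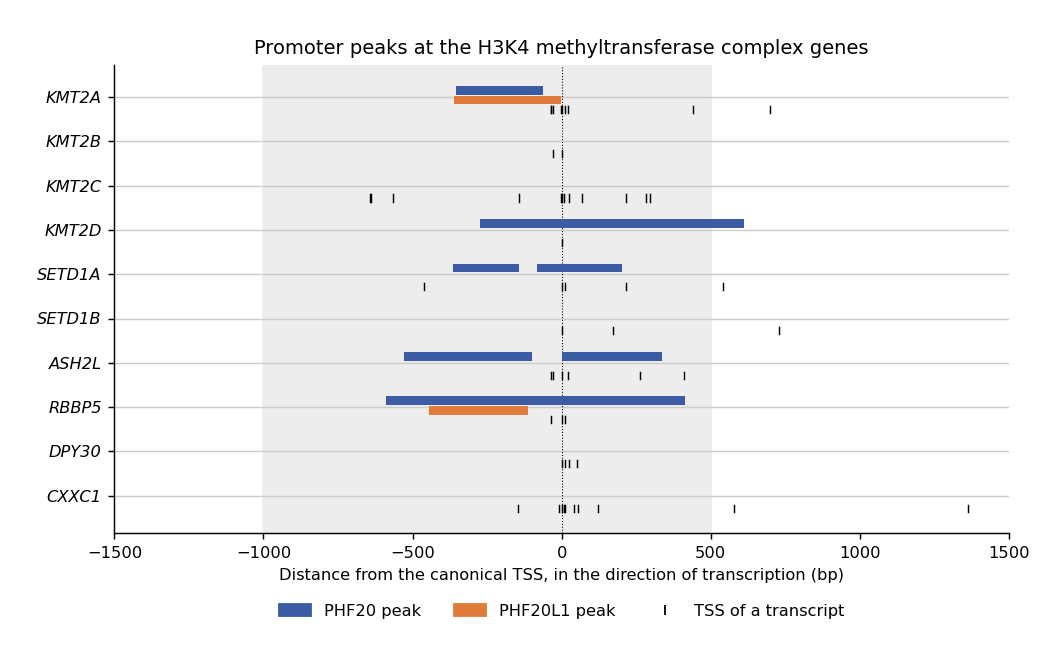
Promoter peaks of PHF20 (blue) and PHF20L1 (orange) at the 10 genes, drawn to scale against the distance in bp from the canonical TSS, with the direction of transcription to the right, the TSSs that fall in the range drawn as black ticks and the interval from 1000 bp before to 500 bp after the canonical TSS shaded. Peaks are present at KMT2A, KMT2D, SETD1A, ASH2L and RBBP5, where SETD1A and ASH2L have 2 PHF20 peaks each, and no promoter peak is drawn for the other 5 genes.

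KMT2A (ENSG00000118058.25, hg38 chromosome 11, 118436456 to 118526832, plus strand) encodes MLL1, the methyltransferase known for its rearrangement in leukemia. Its PHF20 peak extended from 118436137 to 118436427. The peak was 291 bp wide and lay entirely upstream of the annotated gene, with its edges at -355 and -65 bp from the canonical TSS. It was wider than 12.0% of the 3828 PHF20 promoter peaks, which had a median width of 629 bp. The PHF20L1 peak, from 118436132 to 118436488, was 357 bp wide and contained the whole PHF20 peak. It ran into the gene by 33 bp, all 5' UTR, and 3 of the 26 annotated TSSs lay inside it. A PHF20L1 peak wider than its PHF20 partner was uncommon. Of the 682 overlapping peak pairs of the 2 lists, this was so in 16 (2.35%), and in 8 (1.17%) the PHF20L1 peak held the whole PHF20 peak. The upstream ends of both KMT2A peaks also overlapped the promoter window of a long noncoding RNA gene (ENSG00000255384) that starts on the other strand at 118435206.

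KMT2D (ENSG00000167548.18, chromosome 12, 49018975 to 49060794, minus strand) encodes MLL4, a methyltransferase of enhancers. Its PHF20 promoter peak, from 49060182 to 49061067, was 886 bp wide, wider than 73.0% of PHF20 promoter peaks. It spanned the TSS at 49060794, with 273 bp upstream of the gene and 613 bp in the first exon, all 5' UTR. No other gene had a TSS within 1000 bp of it. Another PHF20 peak of 609 bp, from 49018603 to 49019211, lay over the 3' end of KMT2D. This peak contained the TSS of PRKAG1 at 49018776, the gene of a regulatory subunit of AMP-activated protein kinase, and overlapped a promoter window of the noncoding gene DDN-AS1. It was therefore a promoter peak of neighbouring genes. KMT2D had no PHF20L1 peak, and the nearest one, at the promoter of CCNT1, was 343917 bp from the KMT2D TSS.

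The DNA under the KMT2A and KMT2D promoter peaks is shown because these are the methyltransferase genes with the shared peak and with the widest PHF20 peak. The stretches lie inside the peaks, upstream of the canonical TSS and outside annotated UTRs, and are read from hg38 in the direction of transcription. Capitals mark GGGCGG or its reverse complement, the GC box recognized by Sp and KLF factors. The KMT2A stretch, chr11:118436215-118436364, runs from -277 to -128 bp of the canonical TSS and lies in the peaks of both proteins. The KMT2D stretch, chr12:49060795-49060944 on the minus strand, covers the 150 bp before the TSS and lies in the PHF20 peak.
KMT2A: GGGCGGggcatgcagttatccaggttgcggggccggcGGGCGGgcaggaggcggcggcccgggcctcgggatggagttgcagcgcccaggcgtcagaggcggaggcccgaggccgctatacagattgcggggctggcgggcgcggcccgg
KMT2D: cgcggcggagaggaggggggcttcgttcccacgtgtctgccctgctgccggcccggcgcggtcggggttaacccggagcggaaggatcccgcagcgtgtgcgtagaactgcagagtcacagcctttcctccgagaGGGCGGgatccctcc

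SETD1A (ENSG00000099381.20, chromosome 16, 30957294 to 30984664, plus strand) encodes a methyltransferase that provides H3K4 trimethylation at many promoters. It had 2 narrow PHF20 peaks. The first, from 30957390 to 30957610, was 221 bp wide, wider than 3.61% of PHF20 promoter peaks, and the second, from 30957671 to 30957957, was 287 bp wide, wider than 11.5%. They were separated by 60 bp, and together spanned 568 bp. The canonical TSS at 30957754 lay inside the second peak. Since 1 transcript starts upstream, at 30957294, both peaks were entirely within annotated 5' UTR sequence, and none of that sequence is given. A noncoding gene (ENSG00000275263) on the other strand, with its TSS at 30957199, shared both peaks. No PHF20L1 peak was found at SETD1A.

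The other 3 methyltransferase genes had no peak in the promoter or gene body. The distances to their nearest peaks are given from the canonical TSS. The TSS of KMT2B (ENSG00000272333.8, chromosome 19, 35717973 to 35738880) lay 88275 bp from the nearest PHF20 peak. That peak was at the promoter of RBM42, where the nearest PHF20L1 peak was found as well. For SETD1B (ENSG00000139718.12, chromosome 12, 121804009 to 121832656), the nearest PHF20 peak was 84127 bp away and overlapped promoter windows of PSMD9, the gene of a proteasome assembly factor, and of 2 noncoding genes. KMT2C (ENSG00000055609.21, chromosome 7, 152134922 to 152436644), the longest of the genes at 301723 bp and the one with most TSSs, 50, had its nearest PHF20 peak 239856 bp away at XRCC2, a DNA repair gene. The nearest PHF20L1 peaks were 462247 bp from the SETD1B TSS, at VPS33A, and 10884414 bp from the KMT2C TSS, at AGK. A gene with more TSSs offers more windows for a peak to overlap. Of the 4 genes with at least 20 TSSs (KMT2A, KMT2B, KMT2C and KMT2D), 2 had a PHF20 promoter peak, against 33.3% of all protein-coding genes with so many TSSs.

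RBBP5 (ENSG00000117222.14, chromosome 1, 205086142 to 205122015, minus strand) encodes the core subunit that joins with ASH2L to stimulate the catalytic subunits. Among the 10 genes it had the widest PHF20 peak, 1004 bp from 205121565 to 205122568, wider than 81.7% of PHF20 promoter peaks. The peak spanned all 3 annotated TSSs, with 553 bp upstream of the gene, 161 bp of exon and 290 bp of intron. The PHF20L1 peak, from 205122093 to 205122422, was 330 bp wide, close to the 322 bp median of the 673 PHF20L1 promoter peaks. It lay wholly inside the PHF20 peak and covered 32.9% of it. It was also wholly upstream of RBBP5, ending 115 bp before the canonical TSS. This nesting was the usual arrangement, found in 91.6% of the overlapping peak pairs, and the reverse of that at KMT2A. The promoter of RBBP5 is shown because it is the partner gene with peaks of both proteins. The stretch, chr1:205122183-205122332 on the minus strand, lies inside both peaks from -354 to -205 bp of the canonical TSS, and the capitals mark the reverse complement of the GC box.
RBBP5: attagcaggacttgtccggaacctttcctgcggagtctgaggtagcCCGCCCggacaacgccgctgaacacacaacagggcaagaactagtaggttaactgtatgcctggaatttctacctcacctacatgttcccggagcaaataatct

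**Figure D2:**
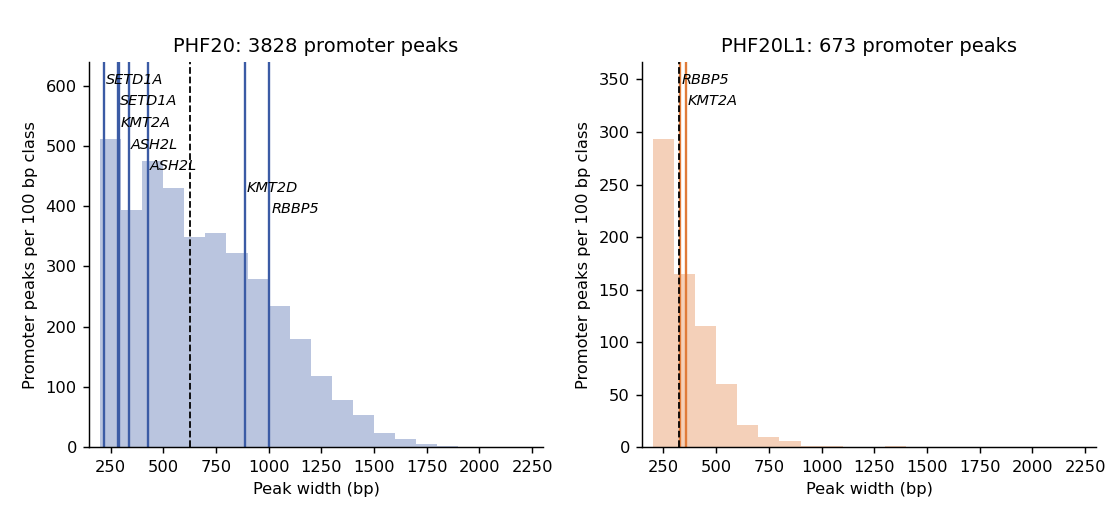
Number of promoter peaks of any gene per 100 bp class of peak width, for PHF20 (left) and PHF20L1 (right), with the median as a dashed line and each member's peaks as labelled lines. Of the 7 PHF20 peaks at members, those of KMT2D (886 bp) and RBBP5 (1004 bp) lie above the median of 629 bp, and both PHF20L1 peaks lie just above 322 bp.

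The 7 PHF20 promoter peaks of the 5 genes had a median width of 337 bp, ranging from 221 to 1004 bp, and those at KMT2A, SETD1A and ASH2L were all below the median of all PHF20 promoter peaks. These widths, and the limits on width used below, count each peak by itself. With the gap between them included, the paired peaks spanned 568 bp at SETD1A and 866 bp at ASH2L, the latter above the 629 bp median of single peaks. Whether such a pair is a single bound region was not tested. The lists give no height, so width is the measure of size that they hold.

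ASH2L (ENSG00000129691.16, chromosome 8, 38105493 to 38144076, plus strand), the partner of RBBP5 in the core, resembled SETD1A in having 2 PHF20 peaks. The first, of 430 bp from 38105001 to 38105430, lay entirely upstream of the gene, and the second, of 337 bp from 38105530 to 38105866, downstream of the canonical TSS, with 283 bp of exon, of which 188 bp are coding in at least 1 transcript, and 54 bp of intron. The gap of 99 bp between them, from 38105431 to 38105529, held the first TSS of the gene and ended at the canonical TSS. No other gene shared these peaks, and no PHF20L1 peak was found. Among all protein-coding genes with a PHF20 promoter peak, 6.85% had 2 or more of them, with a median smallest gap of 214 bp, whereas 2 of the 5 genes here did. Their gaps of 60 and 99 bp were both shorter than that median.

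DPY30 (ENSG00000162961.14, chromosome 2, 31867809 to 32039805, minus strand) encodes a small subunit that binds ASH2L. It had no promoter peak. A PHF20 peak of 342 bp, from 32011011 to 32011352, fell within its annotated span but 28453 bp from its canonical TSS, in an intron. It lay at the start of MEMO1, a gene on the same strand from 31865060 to 32011230 that the span of DPY30 in this annotation nearly covers. A PHF20 peak in the gene body outside the gene's own promoter windows was found in 1.83% of all protein-coding genes, and both cases here, KMT2D and DPY30, were promoter peaks of a neighbour. CXXC1 (ENSG00000154832.16, chromosome 18, 50282343 to 50287839, minus strand) encodes the CpG-binding subunit of the SETD1 complexes. Among the members its canonical TSS lay farthest from a PHF20 peak, 680186 bp from the one at ELAC1. The nearest PHF20L1 peak was 237799 bp from the DPY30 TSS, at YIPF4, and 5302252 bp from that of CXXC1, at TCF4.

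The promoters were compared in base composition over the interval from 1000 bp before to 500 bp after the canonical TSS. Taking a GC content of at least 50% and a CpG observed/expected ratio of at least 0.6 as CpG rich, 8 of the 10 promoters were CpG rich, all but RBBP5 and DPY30, as were 57.2% of all protein-coding genes. Of genes with CpG-rich promoters, 29.2% had a PHF20 peak and 5.03% a PHF20L1 peak. For the members in this class the counts were 4 of 8 and 1 of 8. The median CpG ratio was 0.789 for the 5 members with a PHF20 promoter peak and 0.865 for the 5 without. Across all protein-coding genes the order was the opposite, with a median of 0.743 for promoters with a PHF20 peak and 0.67 for all promoters. The promoters of KMT2B, KMT2C and SETD1B had the highest GC contents of the 10, 75.7%, 78.5% and 72.1%, and none had a peak. In each methyltransferase pair the gene without a peak had the more GC-rich promoter, against 69.2% for KMT2A, 58.7% for KMT2D and 65.9% for SETD1A. Across all protein-coding genes the share with a PHF20 peak was 9.97% below 50% GC, 26.4% from 50% to 60%, 21.5% from 60% to 70% and 17.3% at 70% or more. That of PHF20L1 was 2.53%, 5.45%, 2.78% and 2.85% in the same order. KMT2A, SETD1A and ASH2L, all with a PHF20 peak, lay between 60% and 70%. The part of GC content in which genes had peaks was not tested. DPY30, at 47.6%, and CXXC1, at 52.5%, had no promoter peak at lower GC contents, near the 48.6% of RBBP5, which had peaks of both proteins.

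**Figure D3:**
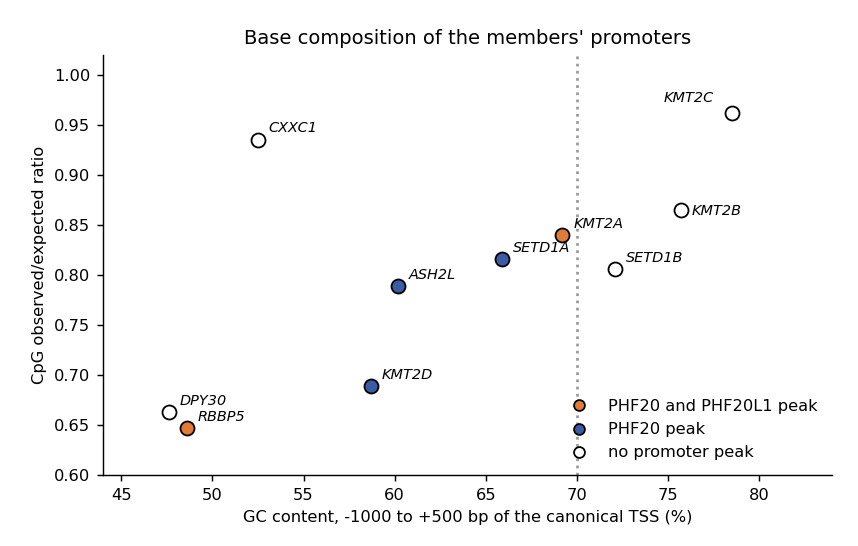
GC content in percent (horizontal) and CpG observed/expected ratio (vertical) of the 10 promoters from 1000 bp before to 500 bp after the canonical TSS, each point 1 gene, with its fill showing which peaks were found there and a dotted line at 70% GC. KMT2B, KMT2C and SETD1B lie right of the line with no promoter peak, whereas DPY30 and CXXC1 lie left of it, also without one.

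Short sequences were searched on both strands from 250 bp before to 49 bp after the canonical TSS of each gene. The letters ACTTCCGG, bound by ETS factors, occurred in 6.14% of all protein-coding promoters and within 11.4% of 300 bp windows at the centres of PHF20 promoter peaks. The E-box sequence CACGTGAC occurred in 3.46% and 3.55%. Neither was found in any of the 10 promoter windows, nor anywhere in the promoter peaks of the members. The same was true of the NRF1 core GCATGCGC (4.27% of promoters and 2.3% of peak centres) and of the CRE sequence TGACGTCA (2.69% and 2.74%). The GC box GGGCGG was present in 5 of the 10 windows, those of KMT2A, KMT2B, KMT2C, KMT2D and SETD1A, against 61.3% of all promoters and 59.5% of PHF20 peak centres. The YY1 core AAGATGGC was in 2, KMT2B and CXXC1, neither with a peak, against 4.04% of promoters and 5.88% of PHF20 peak centres. The CCAAT box was in none of the windows, against 36.1% of promoters and 20.6% of PHF20 peak centres, although SETD1A had 1 copy in each of its peaks and ASH2L 1 in the peak downstream of its TSS. The peaks held between 0 and 5 copies of the GC box, with most in the KMT2D peak, and peaks differ in length. None of the 7 sequences contains another, and a sequence that was not found is only known to be missing from these windows.

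The other genes that write, remove or read H3K4 methylation were described in the same way, and their counts stand beside the 29.2% of genes with CpG-rich promoters that had a PHF20 peak, since nearly all of them were CpG rich. Of 11 further subunits of the same complexes, 5 had a PHF20 promoter peak and none a PHF20L1 peak. A count of 0 among 11 allows a share of up to 27.3%, taken as 3 counts of the total. BOD1 (1310 bp), WDR82 (1035 bp and 232 bp) and BOD1L1 (814 bp), which belong with the SETD1 complexes, had the widest PHF20 peaks of this list. The WDR82 peaks lay far apart, the wider from 52287505 to 52288539 and the narrower from 52278387 to 52278618 on chromosome 3. Whether the peaks of the lists of other genes also lay at promoters of neighbouring genes was not examined, so a wide peak may not belong to the listed gene alone. The peak at WDR5, the core subunit that the NSL complex also contains, was 740 bp wide, and that at NCOA6 201 bp. Among 6 genes for enzymes that remove H3K4 methylation and a partner, 4 had a PHF20 peak. That at KDM5A, a demethylase of trimethylated H3K4, was 1559 bp wide, wider than 99.2% of PHF20 promoter peaks, and contained a PHF20L1 peak of 393 bp. KDM5C had a PHF20 peak of 1018 bp and KDM1A, or LSD1, one of 508 bp. Of 14 genes for readers of the mark, 5 had a PHF20 peak, among them ING4 (1261 bp), DIDO1 (1256 bp) and PHF8 (466 bp), and ING4 also had a PHF20L1 peak of 282 bp.

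Of 21 other histone lysine methyltransferase genes, 6 had a PHF20 promoter peak (28.6%) and 2 a PHF20L1 peak (9.52%). The widest PHF20 peaks were at SETDB1 (680 bp), SETD2 (665 bp and 609 bp) and NSD1 (556 bp), and PHF20L1 peaks lay at NSD3 (322 bp) and EHMT1 (200 bp). All 52 genes of the 4 lists together had PHF20 peaks in 38.5% and PHF20L1 peaks in 7.69%, beside 29.2% and 5.03% of all genes with CpG-rich promoters. CpG-rich promoters made up 11 of 11, 6 of 6, 12 of 14 and 20 of 21 genes of the 4 lists in the order given. These shares describe short lists, and the differences between them were not tested.

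**Figure D4:**
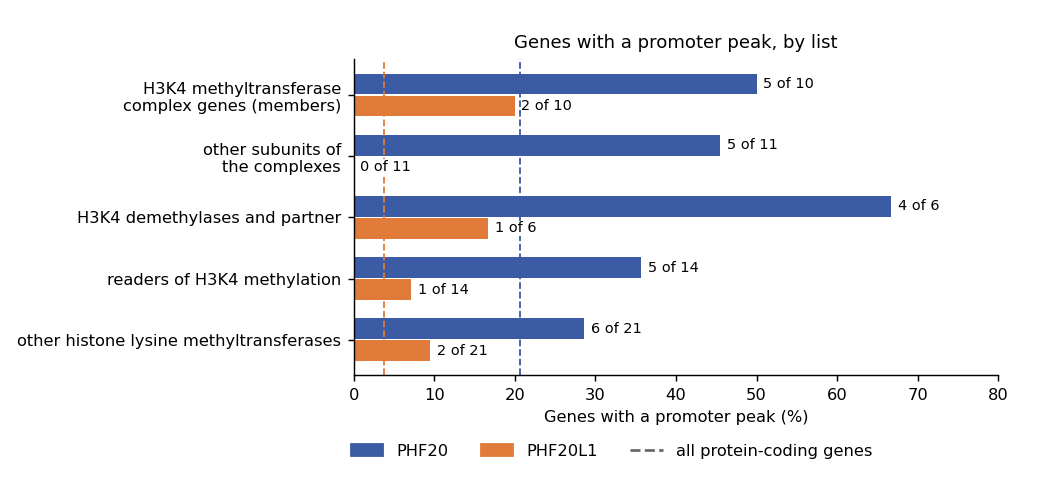
Percent of the genes of each list with a promoter peak of PHF20 (blue) or PHF20L1 (orange), with the counts beside the bars and the shares of all protein-coding genes as dashed lines (20.7% and 3.82%). The members had a PHF20 peak at 5 of 10 genes and the other lists at between 28.6% and 66.7% of theirs.

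The genes with a promoter peak were the same under each definition of promoter that was tried. Placing the peak by its centre, using the outermost TSS or protein-coding transcripts only, and narrowing or widening the window left the same 5 genes for PHF20 and the same 2 for PHF20L1. Peak width did matter. With peaks of at least 300 bp, PHF20 was left at KMT2D, ASH2L and RBBP5, and with only the peaks of median width or more in each list, at KMT2D and RBBP5. Both PHF20L1 peaks passed these limits, so KMT2A then had a PHF20L1 peak without a PHF20 peak.

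**Figure D5:**
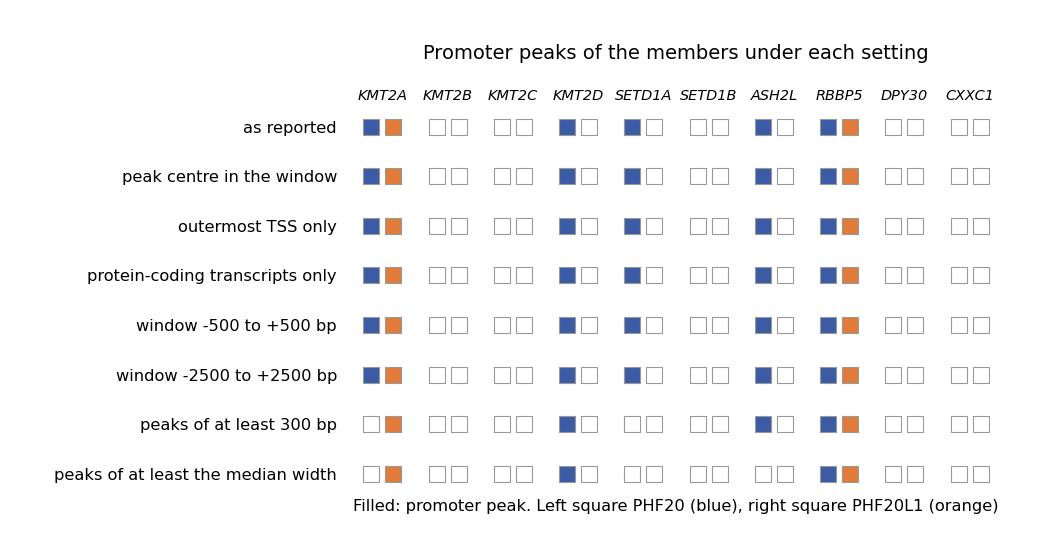
Presence of a promoter peak of PHF20 (left square of each pair, blue) and PHF20L1 (right square, orange) at the 10 genes (columns) under each definition of promoter and peak (rows), with open squares for no peak. The first 6 rows are identical, and SETD1A and the PHF20 peak of KMT2A are lost once peaks of at least 300 bp are required.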

How the data were processed

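Binding of the tagged proteins in U2OS cells, measured by ChIP-Seq with an HA antibody, was analysed from 1 peak list per protein. Reads had been mapped by the authors with Bowtie 1.1.2 to hg38. They kept unique and deduplicated reads, called peaks with MACS2 2.2.7.1 against input, removed blacklisted regions, and kept the peaks of the strongest replicate that were matched in the others at a looser p-value. Per the methods, 3 replicates per protein were sequenced and 1 PHF20 replicate with few peaks was removed, which leaves 2, the number of PHF20 ChIP libraries described here. The deposited values are peak positions in bp, with no score, count or replicate value, so depth per library is unknown here and no replicate could be left out. Columns of values per sample that were not used numbered 0.

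Peaks were placed on GENCODE release 44 (hg38), which is newer than the authors' annotation, with 1-based positions. Mitochondrial genes were left out. Any overlap with a promoter window was counted. No test was made, since the members are not replicates. Wilson 95% intervals cover counting error over genes only. Python 3.11.15, pandas 2.3.3, numpy 2.4.6, scipy 1.17.1, pysam 0.24.0 and matplotlib 3.10.9 were used, and the overlap and motif steps were tested on simulated data.

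The members, the 4 lists of other genes and the 7 motifs were chosen with earlier results of these data known. Genes named are all members, and from the other lists those with a PHF20L1 peak and the 3 with the widest PHF20 promoter peaks. Neighbouring genes are named where a TSS lies within 1000 bp of a member's promoter peak, and for members without a promoter peak the gene at the nearest peak is named. The KMT2D sequence, the class of CpG-rich promoters, the classes by GC content and by number of TSSs, the pairs of related genes, and WDR5, NCOA6, CCNT1, PRKAG1 and DDN-AS1 as further genes named, were chosen after values had been seen.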

Additional observations from a re-analysis of the deposited data

How the results depend on the processing

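No paired analysis was possible because there is 1 final peak list per protein and no list per replicate. For the same reason no replicate could be left out. With peaks of at least 300 bp, the members with a PHF20 promoter peak fell from 5 to 3, those with overlapping peaks of both proteins from 2 to 1, the share of protein-coding genes with a PHF20 peak was 18.63% and with a PHF20L1 peak 2.27%, and the median width at members was 658 bp. With only the peaks of median width or more in each list, these values were 2, 1, 12.06%, 2.11% and 945 bp. The widths rose by the construction of these limits. With the outermost TSS only, the shares of all protein-coding genes were 17.79% and 3.21%. The PHF20 share was 19.98% with protein-coding transcripts only and 21.35% with a window of 2500 bp on both sides. Requiring an overlap of at least 50% of both peaks left 1 member with overlapping peaks, KMT2A, since the PHF20L1 peak covered 32.9% of the PHF20 peak at RBBP5. Of the values recomputed under 9 alternatives, 29 moved little and 15 moved as given here. The depth of the libraries is unknown from the lists, so a missing peak sets no upper limit on binding.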

Other observations

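In the 3 methyltransferase pairs, 1 gene had a PHF20 promoter peak and the other had none. This arrangement was looked for in 6 further pairs of related genes, chosen from the lists after the values had been seen. It was found in 4 of them. KDM1A, EHMT1, KMT5B and SETDB1 had a PHF20 promoter peak, and KDM1B, EHMT2, KMT5C and SETDB2 had none. Neither gene had one in the pairs of EZH1 with EZH2, the H3K27 methyltransferases, and of SUV39H1 with SUV39H2, the H3K9 methyltransferases. None of the pairs looked at had peaks at both genes, but they did not cover all related genes of the lists. ING4 and ING5, BOD1 and BOD1L1, and PHF2 and PHF8, which were left out, had PHF20 promoter peaks at both genes. PHF20 promoter peaks lay at 38.5% of the 52 genes of these lists and at 20.7% of all protein-coding genes, and at such shares a pair with a peak at 1 gene is not unusual, so nothing particular to related genes is read from these counts. Among the 4 further pairs with a peak at 1 gene, that gene had the promoter of lower GC content in 2, KDM1A and SETDB1, and with the 3 methyltransferase pairs, where this was first seen, in 5 of 7. The part of GC content was not tested. EHMT1 (73.0% GC) and KMT5B (76.7%) had PHF20 peaks at promoters more GC rich than those of EHMT2 (60.8%) and KMT5C (63.8%).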
